A study of Mus musculus with 9 samples.

Results

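Toll-like receptors are membrane proteins that detect molecules of microbes and of damaged tissue, and the 10 genes described here are 8 of these receptors (Tlr2, Tlr3, Tlr4, Tlr5, Tlr7, Tlr8, Tlr9 and Tlr13), the adaptor Myd88 and the co-receptor Cd14. They were chosen by name, not by their values, out of 32671 genes in the deposited gene table, and all 10 were among the 20794 genes with enough counts to be tested. Messenger RNA was sequenced from whole lungs of wild-type C57BL/6 mice at day 21, with 3 libraries in each of 3 groups. The LNP group had received bleomycin, a DNA-damaging drug that provokes lung fibrosis, and was then treated with the inhaled particles that the labels name mCas9/gSting@DOPS LNPs, which pair Cas9, a nuclease cutting DNA where its guide directs, with a guide against Sting. The bleomycin group had received bleomycin and no particle. The control group had received saline and was healthy. The sources used here give no ages, sex or doses. A guide-free particle was not analysed here, and what the guide did and what its carrier did cannot be told apart. Whether the 3 libraries of a group came from separate mice is not stated, so each p-value reflects the spread among libraries only. In whole tissue, more cells of a type and more RNA per cell cannot be told apart.

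Toll-like receptors work from 2 places. Tlr2, Tlr4 and Tlr5 sit at the cell surface, where Tlr2 binds bacterial lipoproteins in pairs with Tlr1 or Tlr6, Tlr4 with its partner Ly96 binds lipopolysaccharide handed over by Cd14, and Tlr5 binds flagellin. Tlr3, Tlr7, Tlr8, Tlr9 and Tlr13 sit in endosomes and read nucleic acids, which are double-stranded RNA for Tlr3, single-stranded RNA for Tlr7 and, best known from human cells, Tlr8, unmethylated CpG DNA for Tlr9 and bacterial ribosomal RNA for Tlr13, a receptor that mice have and humans lack. Myd88 carries the signal of each of them except Tlr3, which uses the adaptor Ticam1, and the pathway ends in NF-kB and interferon regulatory factors that switch on cytokine genes. In lung, macrophages, dendritic cells, B cells and epithelium carry different sets of these receptors.

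The sequences upstream of 4 endosomal and surface receptors are shown because these genes moved in opposite directions in the data, Tlr2, Tlr8 and Tlr13 being higher and Tlr9 lower after bleomycin. The 250 bases before the annotated start, from RefSeq on GRCm38.p6, were used for 7 of the 10 genes. No window was found for Tlr4 or Tlr7, and that of Cd14, for which no match was recorded, was left out. Capitals mark matches, on either strand, to GGG NNNNN CC for NF-kB (N being any base), GAGGAA for the myeloid and B cell factor PU.1, GAAA NN GAAA for interferon regulatory factors or ATGCAAAT, the octamer.
Tlr2 (chr3:83841609-83841858, minus strand): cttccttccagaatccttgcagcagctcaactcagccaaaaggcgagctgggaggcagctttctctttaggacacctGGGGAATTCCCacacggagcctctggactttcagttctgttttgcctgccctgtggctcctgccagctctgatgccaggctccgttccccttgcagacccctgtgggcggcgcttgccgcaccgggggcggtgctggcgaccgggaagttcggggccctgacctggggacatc
Tlr8 (chrX:167264330-167264579, minus strand): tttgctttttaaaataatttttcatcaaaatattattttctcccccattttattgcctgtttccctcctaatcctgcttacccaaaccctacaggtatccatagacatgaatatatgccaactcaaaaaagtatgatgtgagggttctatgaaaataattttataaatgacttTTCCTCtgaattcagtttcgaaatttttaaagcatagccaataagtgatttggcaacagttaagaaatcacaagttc
Tlr13 (chrX:106143025-106143274, plus strand): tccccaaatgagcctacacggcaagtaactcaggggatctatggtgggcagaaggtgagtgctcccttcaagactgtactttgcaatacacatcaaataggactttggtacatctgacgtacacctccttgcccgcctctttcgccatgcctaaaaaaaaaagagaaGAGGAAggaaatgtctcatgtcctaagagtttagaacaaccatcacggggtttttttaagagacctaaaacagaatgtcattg
Tlr9 (chr9:106222348-106222597, plus strand): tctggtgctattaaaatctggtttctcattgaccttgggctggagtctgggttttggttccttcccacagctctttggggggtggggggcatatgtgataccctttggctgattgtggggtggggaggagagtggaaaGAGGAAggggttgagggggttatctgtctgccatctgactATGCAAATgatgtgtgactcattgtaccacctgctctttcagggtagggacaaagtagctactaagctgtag
The Tlr2 window held GGGGAATTCCC, which contains 3 overlapping NF-kB matches 173 to 163 bases before the start. The windows of Tlr13 and Tlr9 held GAGGAA, at 83 to 78 and 112 to 107 bases before the start, and that of Tlr8 held it on the other strand, as TTCCTC at 77 to 72. The Tlr9 window also held ATGCAAAT at 72 to 65 bases before the start. Among the other windows, Tlr3 held 2 NF-kB matches, Tlr5 held 1 and Myd88 held GAAAGCGAAA at 40 to 31 bases before its start. Of 32851 windows of the same length, 45.8% held the NF-kB letters, 23.3% GAGGAA, 2.98% the interferon regulatory factor letters and 1.6% the octamer, so matches to the first 2 are common, and a match is a description of letters and not a binding site.

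Gene counts summed to 56047830 to 69404903 per library, and the surfactant gene Sftpc, a defining lung transcript, was at 3760 CPM (TMM-scaled share of a library's counts, as CPM) or more in each. LNP replicate 3 stood apart, with a correlation of log2 CPM of 0.933 with each of the other LNP libraries, which reached 0.978 with each other. Skeletal muscle markers summed to 9188 CPM in it, against 9.86 and 9.28 CPM in the other LNP libraries, at most 14.0 CPM in bleomycin and at most 56.4 CPM in control libraries, and squamous epithelial markers to 1806 CPM, against at most 44.3 CPM in the 8 others. Results that involve LNP libraries are therefore also given without LNP replicate 3 where a call or a count of calls changes. Sting1, the gene that the guide targets, was at 51.8, 62.0 and 44.3 CPM in LNP libraries, 53.8, 41.5 and 40.5 CPM in bleomycin and 18.4, 23.9 and 20.9 CPM in control libraries, so its RNA was not lower in LNP than in bleomycin lungs (log2 fold change 0.22 ± 0.17, adjusted p = 0.48). Cuts in its DNA were not measured here.

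After bleomycin, 7 of the 10 genes rose against control and 1 fell, while Tlr3 and Tlr5 did not pass the test. Of all tested genes, 15.2% were called higher and 18.5% lower in that comparison. The largest rises were those of the endosomal RNA receptors Tlr13 (4.86-fold), Tlr7 (4.12-fold) and Tlr8 (3.87-fold), followed by Cd14 (2.54-fold) and Tlr2 (2.40-fold), and the DNA receptor Tlr9 fell to 0.375 of the control level. In LNP lungs Tlr9 was 3.23-fold higher than in bleomycin lungs, a call close to the threshold that was lost under 12 of 18 alternatives. No gene of the set was called lower in LNP than in bleomycin lungs from all 9 libraries, but without LNP replicate 3 Tlr7 (0.424-fold) and Tlr13 (0.484-fold) were, and DESeq2 called Cd14 lower. Against control, Tlr2, Tlr8 and Tlr13 were higher in LNP lungs. Changes are log2 fold changes from 1 edgeR quasi-likelihood fit of all 9 libraries, given ± SE with Benjamini-Hochberg p-values adjusted over all tested genes, and a gene is called at an adjusted p under 0.05. Gene positions are those of the deposited table, whose build the sources used here do not name. They differ from the GRCm38.p6 positions of the windows above and cannot be set beside them. The deposited Tlr2 gene, on the minus strand, ends at 83749074, while its window begins at 83841609.

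**Figure D1:**
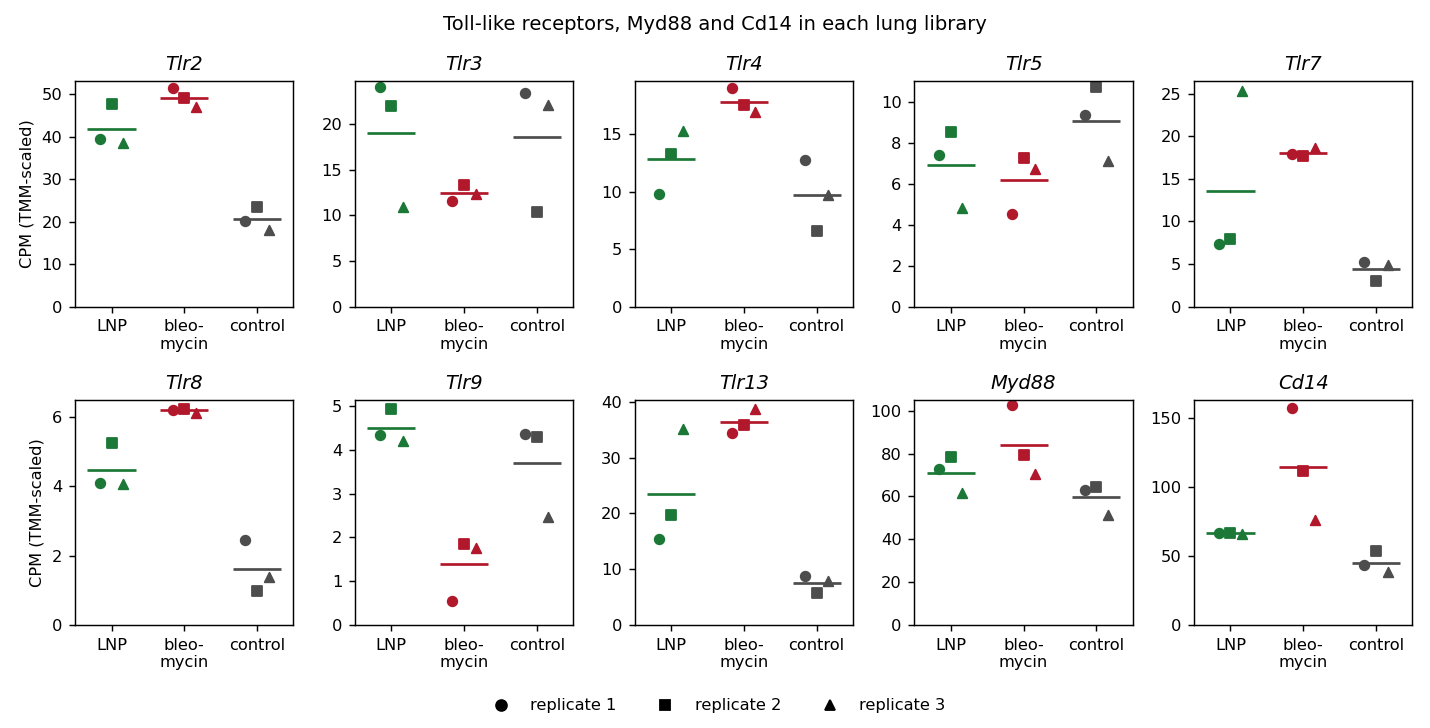
TMM-scaled CPM (y axis, from 0, one scale per gene) of the 10 genes in each library of the LNP, bleomycin and control groups, with a marker shape per replicate and a line at each group's mean (n = 3). Tlr2, Tlr7, Tlr8, Tlr13 and Cd14 are above all control libraries in both bleomycin-exposed groups. Tlr9 is low in the 3 bleomycin libraries, and LNP replicate 3 is high in Tlr7 and Tlr13 and low in Tlr3.

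Among the surface receptors, Tlr2 (ENSMUSG00000027995, chromosome 3, 83743579 to 83749074, minus strand) was at 39.4, 47.7 and 38.4 CPM in LNP libraries, 51.4, 49.1 and 46.9 CPM in bleomycin libraries and 20.1, 23.4 and 18 CPM in control libraries. Every library of both bleomycin-exposed groups lay above every control library, while the LNP and bleomycin ranges overlapped. The rise was 1.26 ± 0.14 (adjusted p = 0.00035) in bleomycin and 1.03 ± 0.14 (adjusted p = 0.0035) in LNP lungs, both against control. Between LNP and bleomycin lungs the difference was -0.23 ± 0.14 (95% interval -0.55 to 0.08, adjusted p = 0.34).

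Tlr4 (ENSMUSG00000039005, chromosome 4, 66745821 to 66848521, plus strand), the lipopolysaccharide receptor, was at 9.84, 13.3 and 15.3 CPM in LNP, 19.0, 17.6 and 17 CPM in bleomycin and 12.8, 6.60 and 9.77 CPM in control libraries. The bleomycin libraries were the highest 3 of the 9, and LNP libraries lay below them, overlapping control libraries only. The gene rose by 0.88 ± 0.25 in bleomycin against control (adjusted p = 0.023), a call lost without control replicate 3 (adjusted p = 0.0658), without bleomycin replicate 1 (0.0733) or without bleomycin replicate 2 (0.0632). LNP lungs differed from bleomycin by -0.48 ± 0.25 (adjusted p = 0.26) and from control by 0.40 ± 0.25 (adjusted p = 0.36). An annotated gene on the same strand, Gm57137, overlaps Tlr4 and held 71 to 629 counts per library, so reads could be split between them.

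Cd14 (ENSMUSG00000051439, chromosome 18, 36858120 to 36859851, minus strand), which hands lipopolysaccharide to Tlr4 and also assists Tlr2, was at 66.8, 66.4 and 66.3 CPM in LNP, 157.6, 111.4 and 75.9 CPM in bleomycin and 43.9, 53.8 and 38.2 CPM in control libraries. The LNP libraries were nearly equal and lay in the gap between the other groups, below the lowest bleomycin and above the highest control library, while the bleomycin libraries were widely spread. Cd14 rose by 1.34 ± 0.24 in bleomycin against control (adjusted p = 0.0027). The LNP difference from bleomycin was -0.79 ± 0.24 (95% interval -1.32 to -0.26), which missed the threshold (adjusted p = 0.078) and passed it in DESeq2 (-0.80, adjusted p = 0.016) and without bleomycin replicate 3 (-1.01, adjusted p = 0.0349). Against control LNP lungs differed by 0.56 ± 0.24 (adjusted p = 0.19).

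Tlr5 (ENSMUSG00000079164, chromosome 1, 182782353 to 182804010, plus strand), the flagellin receptor, was at 7.41, 8.51 and 4.79 CPM in LNP, 4.51, 7.25 and 6.73 CPM in bleomycin and 9.33, 10.7 and 7.11 CPM in control libraries. All groups overlapped. Its difference in bleomycin against control was -0.55 ± 0.28 (95% interval -1.18 to 0.07, adjusted p = 0.15), and in LNP against bleomycin 0.16 ± 0.28 (adjusted p = 0.77).

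Among the endosomal receptors, Tlr13 (ENSMUSG00000033777, chromosome X, 105186810 to 105204099, plus strand) was at 15.4, 19.7 and 35.2 CPM in LNP, 34.4, 35.9 and 38.7 CPM in bleomycin and 8.81, 5.71 and 7.92 CPM in control libraries. LNP replicates 1 and 2 lay between the other groups and LNP replicate 3 lay inside the bleomycin range. Tlr13 rose by 2.28 ± 0.30 in bleomycin (adjusted p = 0.00063) and by 1.65 ± 0.29 in LNP lungs (3.13-fold, adjusted p = 0.0087), both against control. In LNP against bleomycin the difference was -0.63 ± 0.28 (adjusted p = 0.20), and without LNP replicate 3 it was -1.05 ± 0.20 (0.484-fold, adjusted p = 0.0049).

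Tlr7 (ENSMUSG00000044583, chromosome X, 166087925 to 166113554, minus strand) had 7.39, 7.89 and 25.4 CPM in LNP, 17.9, 17.7 and 18.6 CPM in bleomycin and 5.19, 3.06 and 4.90 CPM in control libraries. LNP replicate 3 was the highest of all 9, while the other LNP libraries lay between bleomycin and control. The rise in bleomycin against control was 2.04 ± 0.45 (adjusted p = 0.0076). LNP lungs differed from bleomycin by -0.42 ± 0.43 (95% interval -1.38 to 0.55, adjusted p = 0.60), and by -1.24 ± 0.23 (0.424-fold, adjusted p = 0.0039) without LNP replicate 3. Against control the LNP difference of 1.63 ± 0.44 missed the threshold (adjusted p = 0.053), and it passed without any one of the LNP libraries, at 1.92 without replicate 1 (adjusted p = 0.0269), 1.90 without replicate 2 (0.0413) and 0.84 without replicate 3 (0.0362).

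Tlr8 (ENSMUSG00000040522, chromosome X, 166025692 to 166047295, minus strand), which lies beside Tlr7 on the X chromosome, was at 4.10, 5.25 and 4.06 CPM in LNP, 6.21, 6.24 and 6.12 CPM in bleomycin and 2.46, 0.969 and 1.37 CPM in control libraries. The groups did not overlap at any point, with LNP in the middle. Tlr8 rose by 1.95 ± 0.33 in bleomycin (adjusted p = 0.0022) and by 1.48 ± 0.33 in LNP lungs (2.79-fold, adjusted p = 0.023), both against control. The LNP call was lost without control replicate 3 (1.38, adjusted p = 0.0982), LNP replicate 2 (1.35, adjusted p = 0.069) or bleomycin replicate 2 (1.48, adjusted p = 0.0503), and LNP differed from bleomycin by -0.47 ± 0.32 (adjusted p = 0.40). Unlike Tlr7, Tlr8 was not high in LNP replicate 3, so the ratio of Tlr7 to Tlr8 FPKM was 5.56 there, against 1.58 and 1.32 in the other LNP libraries, 2.5 to 2.68 in bleomycin and 1.86 to 3.18 in control libraries.

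Tlr9 (ENSMUSG00000045322, chromosome 9, 106099797 to 106104082, plus strand), the CpG DNA receptor, went the other way. It was at 4.33, 4.93 and 4.20 CPM in LNP, 0.557, 1.85 and 1.75 CPM in bleomycin and 4.36, 4.28 and 2.46 CPM in control libraries. All bleomycin libraries were below all others, and LNP and control libraries overlapped. Tlr9 fell by 1.41 ± 0.43 on the log2 scale in bleomycin against control (adjusted p = 0.029), a call lost without control replicate 1 (-1.28, adjusted p = 0.0891) or control replicate 2 (-1.30, adjusted p = 0.0779). In LNP against bleomycin it was higher by 1.69 ± 0.43 (95% interval 0.74 to 2.65), and the adjusted p of 0.048 rose above the threshold without any one library except LNP replicate 3, to between 0.0631 and 0.124 with values of 1.32 to 1.95. LNP lungs differed from control by 0.28 ± 0.41 (95% interval -0.65 to 1.2, adjusted p = 0.74). In raw counts Tlr9 had 34 to 119 per bleomycin library and at least 172 in each other library.

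Tlr3 (ENSMUSG00000031639, chromosome 8, 45848702 to 45864117, minus strand), the double-stranded RNA receptor, was at 24.0, 22.0 and 10.9 CPM in LNP, 11.6, 13.4 and 12.4 CPM in bleomycin and 23.4, 10.3 and 22.1 CPM in control libraries. The high and low libraries did not follow the groups, since LNP replicate 3 and control replicate 2 were at or below the bleomycin level. No comparison passed, at -0.58 ± 0.34 in bleomycin against control (adjusted p = 0.22), 0.61 ± 0.34 in LNP against bleomycin (adjusted p = 0.31) and 0.03 ± 0.34 in LNP against control (adjusted p = 0.97). Without LNP replicate 3, Tlr3 was higher in LNP than in bleomycin lungs (0.89 ± 0.29, adjusted p = 0.048).

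The adaptor Myd88 (ENSMUSG00000032508, chromosome 9, 119165000 to 119169107, minus strand) was at 72.6, 78.6 and 61.7 CPM in LNP, 102.7, 79.3 and 70.5 CPM in bleomycin and 63.1, 64.5 and 51.4 CPM in control libraries. Its bleomycin libraries lay above all control libraries and LNP libraries overlapped both. The rise of 0.50 ± 0.17 in bleomycin (1.41-fold, adjusted p = 0.047) was the smallest of the 7, and it lost its call with library totals in place of TMM scaling (0.42, adjusted p = 0.0547) and without any one of 7 libraries, all but bleomycin replicate 3 and LNP replicate 3 (0.33 to 0.55, adjusted p 0.0605 to 0.192). In LNP lungs Myd88 differed by -0.25 ± 0.17 from bleomycin and by 0.25 ± 0.17 from control (adjusted p = 0.41 in both). Acaa1a, on the opposite strand with 5896 to 12373 counts per library, overlaps Myd88, and no source used here says whether counting used the strand, so the level of Myd88 is uncertain.

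**Figure D2:**
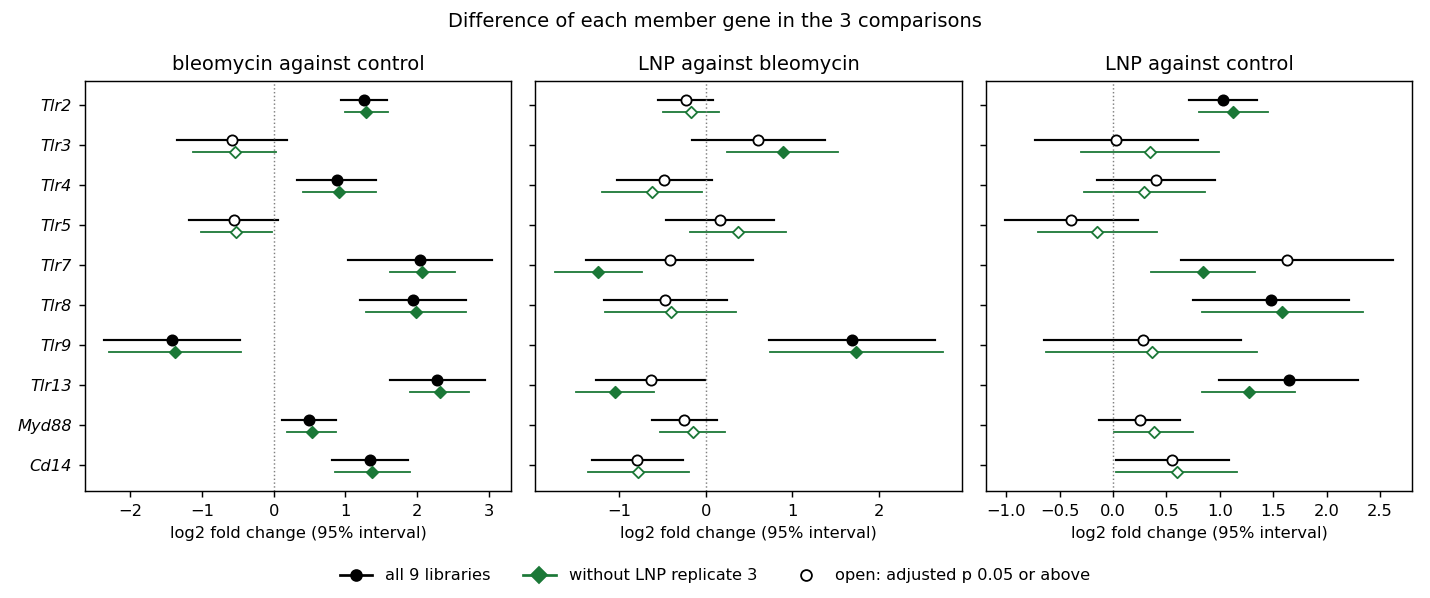
Log2 fold change with its 95% interval (x axis, one scale per panel) of the 10 genes in bleomycin against control, LNP against bleomycin and LNP against control, from all 9 libraries (black circles) and without LNP replicate 3 (green diamonds), with open symbols at an adjusted p of 0.05 or above. Tlr7 and Tlr13 are the genes whose LNP against bleomycin value moved most without that library, to -1.24 and -1.05.

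As a set, 7 of 10 genes were called higher in bleomycin against control, where 15.2% of all tested genes were, and 1 of 10 lower, where 18.5% were. The median log2 fold change was 1.07, beside -0.05 over all tested genes. The groups did not overlap for 7 genes on the higher side, against 25.9% of all tested genes, and for 1 on the lower side, against 29.6%. Without LNP replicate 3 in the fit the counts were again 7 and 1, where 20.5% and 22.1% of tested genes were called. In LNP against bleomycin, 1 of 10 genes was called higher, where 4.28% of tested genes were, and 0 lower, where 1.87% were. An unadjusted p under 0.05 was reached by 3 of the 10 in edgeR, and DESeq2 called 1 higher and 1 lower. The groups did not overlap for Tlr9 on the higher side, against 15.4% of tested genes, and for Tlr4, Tlr8 and Cd14 on the lower side, against 14.5%, with a median of -0.33 beside 0.04. Without LNP replicate 3 these counts became 2 higher (Tlr3 and Tlr9) and 2 lower (Tlr7 and Tlr13), where 14% and 10.7% of tested genes were called. In LNP against control, 3 of 10 were called higher, where 4.95% of tested genes were, and 0 lower, where 3.08% were, with 5 of 10 at an unadjusted p under 0.05. There the groups did not overlap for Tlr2, Tlr7, Tlr8, Tlr13 and Cd14, all higher, against 13.7% of tested genes, and for 0 on the lower side, against 15.2%. Without LNP replicate 3, 4 were called higher (Tlr2, Tlr7, Tlr8 and Tlr13), where 6.41% were, and 0 lower, where 4.51% were. The 3 comparisons share libraries pairwise and are not independent. With 3 libraries against 3, an exact permutation test of a single gene cannot go below p = 0.1, so the calls rest on the spread shared across genes.

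Per length, on the authors' FPKM, a level scaled for depth and gene length, Cd14, Myd88 and Tlr2 led in all 3 groups. Cd14 averaged 36.6 ± 0.571 FPKM in LNP, 57.7 ± 17.9 FPKM in bleomycin and 24.0 ± 3.14 FPKM in control libraries (SD, n = 3 each), and Myd88 26.3 ± 3.5, 28.5 ± 4.25 and 21.3 ± 2.11 FPKM in the same groups. Cd14 and Myd88 overlapped in control libraries only. Tlr2 followed at 13.2 ± 1.76, 14.3 ± 0.113 and 6.24 ± 0.562 FPKM.

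The order below Tlr2 differed between the groups. In LNP libraries Tlr13 (5.16 ± 2.22 FPKM), Tlr3 (3.48 ± 1.32), Tlr7 (3.14 ± 2.33) and Tlr4 (2.20 ± 0.455) overlapped each with the next, and Tlr5 (1.27 ± 0.365), Tlr9 (1.23 ± 0.119) and Tlr8 (1.18 ± 0.196) formed a lower overlapping run. In bleomycin libraries no neighbours overlapped, and the order ran Tlr13 (7.43 ± 0.781 FPKM), Tlr7 (3.88 ± 0.260), Tlr4 (2.82 ± 0.0338), Tlr3 (2.10 ± 0.217), Tlr8 (1.51 ± 0.0609), Tlr5 (1.04 ± 0.282) and Tlr9 (0.353 ± 0.193). In control libraries Tlr3 (3.32 ± 1.38 FPKM), Tlr4 (1.62 ± 0.559), Tlr13 (1.61 ± 0.396) and Tlr5 (1.59 ± 0.266) overlapped each with the next, Tlr7 (0.993 ± 0.295) overlapped Tlr9 (0.972 ± 0.268), and Tlr8 (0.410 ± 0.209) was lowest. Tlr9 thus had the lowest mean of the 8 receptors in bleomycin libraries and Tlr8 in the others.

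The 8 receptors together summed to 27.4, 32.2 and 33.1 FPKM in LNP, 31.6, 34.0 and 34.8 FPKM in bleomycin and 19.2, 14.5 and 16.5 FPKM in control libraries. LNP and bleomycin sums overlapped and both groups lay above control. The 5 endosomal receptors took 45.7% ± 6.75 of the sum in LNP, 45.6% ± 2.05 in bleomycin and 43.0% ± 8.19 in control libraries. The group means of this split between surface and endosomal receptors thus differed by less than the spread between libraries. The LNP mean depended on replicate 3, at 53.4%, above all bleomycin libraries (43.6% to 47.7%), while LNP replicates 1 and 2, at 43.2% and 40.6%, lay below them. Control libraries were at 47.5%, 33.5% and 47.8%. Within the endosomal class the make-up differed. Tlr13 took 16.5% ± 5.88 of the receptor sum in LNP, 22.2% ± 1.32 in bleomycin and 9.50% ± 1.32 in control libraries. Tlr3 took 11.6% ± 5.16, 6.27% ± 0.406 and 19.4% ± 6.54 in the same groups, and Tlr9 4.00% ± 0.496, 1.04% ± 0.542 and 5.86% ± 1.71. In LNP replicate 3 the shares of Tlr13 (23.2%) and Tlr3 (5.95%) lay inside the bleomycin ranges. In LNP replicates 1 and 2 they did not, at 12.5% and 13.7% for Tlr13 and 16.1% and 12.6% for Tlr3.

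**Figure D3:**
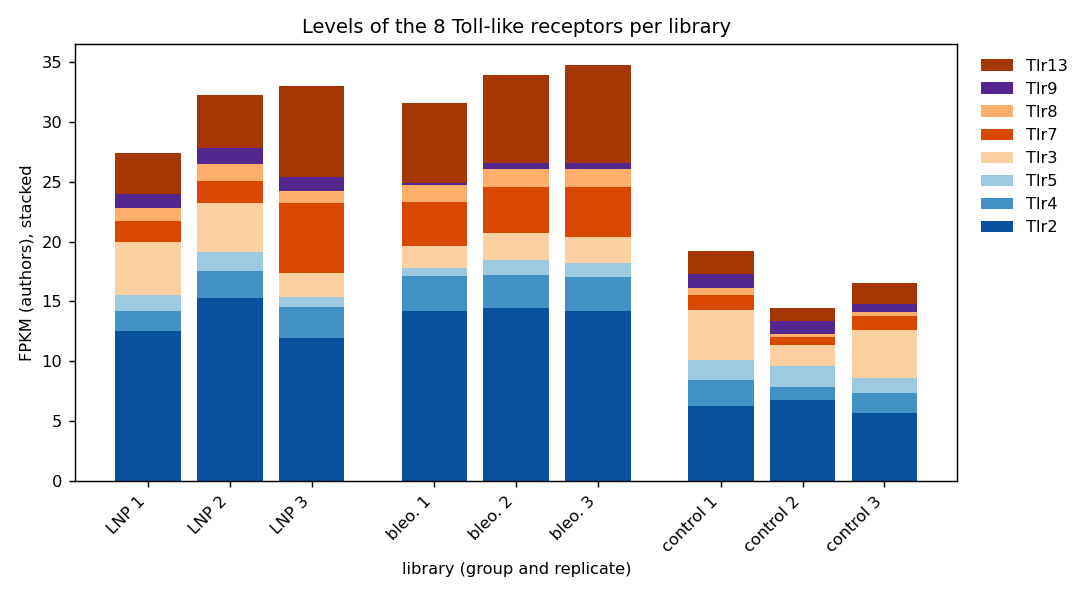
Authors' FPKM of the 8 Toll-like receptors stacked per library (y axis, from 0), surface receptors in blues below and endosomal receptors above, for LNP, bleomycin and control libraries. The stacks reach 27.4 to 34.8 FPKM in LNP and bleomycin libraries and 14.5 to 19.2 FPKM in control libraries, and the Tlr9 band is thinnest in bleomycin libraries.

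The balance between the RNA receptor Tlr7 and the DNA receptor Tlr9, which share the trafficking protein Unc93b1, set the bleomycin libraries apart. The ratio of Tlr7 to Tlr9 FPKM was 1.45, 1.36 and 5.15 in LNP, 28, 8.19 and 9.04 in bleomycin and 1.02, 0.607 and 1.70 in control libraries. All bleomycin libraries were above all others, and LNP replicates 1 and 2 lay inside the control range. The ratio of Tlr13 to Tlr9 was 2.88, 3.24 and 6.77 in LNP, 51.1, 15.8 and 17.9 in bleomycin and 1.64, 1.08 and 2.60 in control libraries. LNP libraries were higher than every control library and lower than every bleomycin library for this ratio. These ratios were chosen after the values were seen and carry no test.

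Markers of several cell types of the lung differed between the groups in the same libraries, in both directions, and their part in the results was not tested. The marker counts in this and the next 2 paragraphs stand beside shares of all tested genes. In bleomycin against control 15.2% were called higher and 18.5% lower. In LNP against bleomycin they were 4.28% and 1.87%, or 14% and 10.7% without LNP replicate 3, and in LNP against control 4.95% and 3.08%. Recruited macrophage markers were called higher in bleomycin against control for 11 of 12 genes and lower for Cx3cr1, and in LNP against control higher for 11 of 12. Their summed level was 3031, 4192 and 8881 CPM in LNP, 4764 to 5591 CPM in bleomycin and 954.8 to 1290.0 CPM in control libraries. LNP replicate 3, high in Tlr7 and Tlr13, was the highest, and without it 5 of the 12 were called lower and 1 higher in LNP against bleomycin. Apoe alone held most of these sums on average, with means of 3415 CPM in LNP, 3086 CPM in bleomycin and 817.5 CPM in control libraries. Trem2, a receptor of lipid-handling macrophages, was at 63.3 to 144.0 CPM in LNP, 101.7 to 108.0 CPM in bleomycin and 2.92 to 5.22 CPM in control libraries. Alveolar macrophage markers summed to 434.9 to 543.6 CPM in LNP, 1010.0 to 1225 CPM in bleomycin and 415.1 to 450.7 CPM in control libraries. Chil3 alone held most of these sums on average, with means of 263.2 CPM in LNP, 929.9 CPM in bleomycin and 228.7 CPM in control libraries. By gene, however, only 2 of 12 (16.7%) were called higher and 3 (25.0%) lower in bleomycin against control, near the shares of all tested genes. In LNP against bleomycin 1 of the 12 was higher and 1 lower, becoming 5 and 2 without LNP replicate 3. Neutrophil markers summed to 240.6 to 578.9 CPM in LNP, 469.1 to 1061 CPM in bleomycin and 248.2 to 414.5 CPM in control libraries, with 6 of 13 called higher and 1 lower in bleomycin against control and, in LNP against bleomycin, 0 higher and 7 lower (1 and 8 without LNP replicate 3). Of these markers Ltf had the highest mean in each group, at 333.4 CPM in LNP, 205.9 CPM in bleomycin and 116.4 CPM in control libraries. On average it held most of the LNP sum. The neutrophil surface gene Ly6g was at or under 1.18 CPM in every library.

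Beside Tlr9, B cell markers were lower in bleomycin against control for 12 of 12 genes and higher in LNP against bleomycin for 12 of 12. They summed to 212.1 to 226.4 CPM in LNP, 19.2 to 21.0 CPM in bleomycin and 171.9 to 243.8 CPM in control libraries. Cd79a, a chain of the B cell receptor, was at 36.4 to 43.5 CPM in LNP, 1.40 to 2.03 CPM in bleomycin and 30.1 to 41.7 CPM in control libraries. Plasmacytoid dendritic cell markers summed to 36.8, 34.8 and 84.5 CPM in LNP, 20.6 to 22.4 CPM in bleomycin and 38.0 to 51.8 CPM in control libraries, with 6 of 8 called lower and 1 higher in bleomycin against control. In LNP against bleomycin 2 of 8 were higher and 0 lower, becoming 3 and 1 without LNP replicate 3. The highest LNP sum was that of replicate 3, and 2 of the 8 genes held most of the LNP sums, Cox6a2, which muscle also expresses, at 6.69 to 35.8 CPM and Ly6d at 17.9 to 32.1 CPM. Its defining gene Siglech was low throughout, at 0.279 to 0.847 CPM in LNP, 0 to 0.18 CPM in bleomycin and 1.06 to 1.23 CPM in control libraries. Tlr9 and both marker lists were low in the 3 bleomycin libraries, but they were not alone in this.

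Other marker lists were also lower in bleomycin than in control libraries. Conventional dendritic cell markers summed to 223.7, 227.5 and 104.0 CPM in LNP, 85.7 to 105.4 CPM in bleomycin and 190.0 to 203.5 CPM in control libraries, with 8 of 11 lower and 1 higher in bleomycin against control and 5 higher in LNP against bleomycin (8 higher and 1 lower without LNP replicate 3). Ciliated cell markers summed to 207.9 to 290.0 CPM in LNP, 108.8 to 132.4 CPM in bleomycin and 310.0 to 384.7 CPM in control libraries, with 8 of 8 lower in bleomycin against control and 6 higher in LNP against bleomycin (7 without LNP replicate 3). Alveolar type 2 cell markers, of the surfactant-making epithelium, summed to 23400, 19430 and 7916 CPM in LNP, 9048 to 10730 CPM in bleomycin and 24810 to 33290 CPM in control libraries. By gene, 7 of 10 were lower in bleomycin against control and 1 higher in LNP against bleomycin (9 without LNP replicate 3). LNP replicate 3, whose Tlr3 was also low, was near the bleomycin libraries in the dendritic cell sum and below them in the alveolar type 2 sum. Control replicate 2, with Tlr3 at only 10.31 CPM, had the highest sums of its group in both lists (203.5 and 33290 CPM). Monocyte markers summed to 2603 to 2859 CPM in LNP, 3248 to 3453 CPM in bleomycin and 3087 to 3761 CPM in control libraries. In the same order, Ace (means of 1391, 2065 and 1675 CPM) and Hp (1069, 1005 and 1493 CPM) held most of these sums. The sums therefore say little about the other monocyte markers. By gene, 2 of 12 (16.7%) were higher and 5 (41.7%) lower in bleomycin against control, where 15.2% and 18.5% of all tested genes were. In LNP against bleomycin 1 was higher and 1 lower (4 and 3 without LNP replicate 3).

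**Figure D4:**
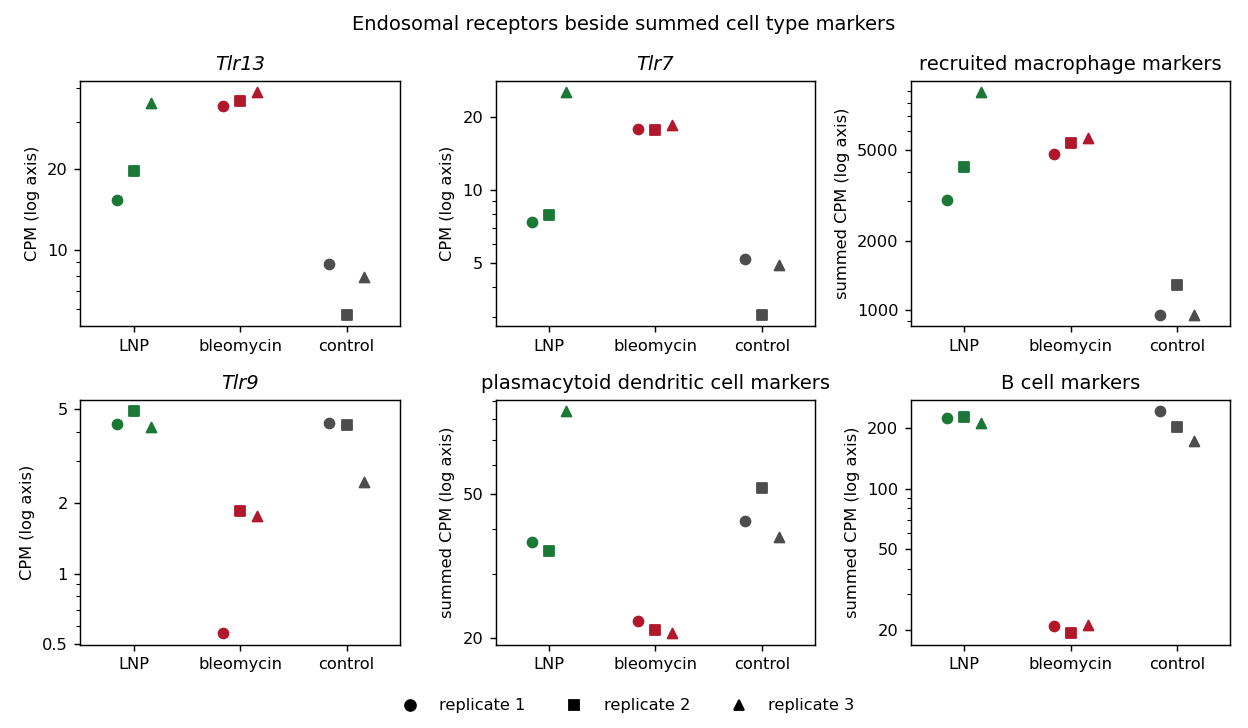
CPM of Tlr13, Tlr7 and Tlr9 and summed CPM of recruited macrophage, plasmacytoid dendritic cell and B cell markers (y axes, log) in each LNP, bleomycin and control library, with a marker shape per replicate. LNP replicate 3 is highest of its group in Tlr13, Tlr7 and the macrophage sum, and bleomycin libraries are lowest in Tlr9 and in the B cell and plasmacytoid dendritic cell sums.

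The 3 genes whose pattern over the 9 libraries was most like each receptor are given with the root mean square difference of centred log2 CPM, among 11808 genes with a mean of at least 5 CPM. They were Spi1 (0.10), Gla (0.11) and Pik3r5 (0.11) for Tlr2, where Spi1 encodes PU.1. For Tlr13 they were Ifi207 (0.21), Fcgr2b (0.21), an inhibitory antibody receptor, and Pcdh7 (0.22), and for Tlr7 Ifi207 (0.21), Pla2g7 (0.23) and Pcdh7 (0.26). Within the set Tlr7 and Tlr13 were the closest pair, at 0.23. The neighbours of Tlr9 were Septin1 (0.33), Tbc1d10c (0.38) and Dtx1 (0.40), those of Tlr8 Arhgap11a (0.21), Pira1 (0.26) and Map2 (0.27), and those of Cd14 Gch1 (0.11), Rhoc (0.12) and Cebpb (0.12), a transcription factor. Tlr3 was nearest to Herc6 (0.05), an interferon-induced gene, then Ptprc (0.13) and Pcm1 (0.15). Tlr4 was nearest to Orc2 (0.11), Sema5a (0.12) and Psme4 (0.14), Tlr5 to Tango6 (0.11), Prr5l (0.11) and Miga2 (0.13), and Myd88 to Cct6a, Hnrnpab and Pprc1 (0.07 to 0.08). All share the same 9 libraries, so these are descriptions.

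Most counts of each gene fell on 1 annotated transcript. Tlr2 and Tlr9 had 1 transcript each, and the leading transcript held 99.9% of Tlr13, 99.5% of Tlr4, 97.2% of Tlr8, 96.4% of Myd88, 96.3% of Cd14 and 90.8% of Tlr3 counts over the 9 libraries. The next Cd14 and Myd88 transcripts, 3.75% and 3.56%, are annotated as retained introns. Tlr5 was split, with 64.2% and 34.3% on its 2 main transcripts, and Tlr7 with 76.6% and 20.3%. The leading Tlr7 transcript had 304, 223 and 1330 counts in LNP, 965, 821 and 1097 in bleomycin and 241, 0 and 225 in control libraries, and the second had 226, 233 and 105 in LNP, 97, 318 and 86 in bleomycin and 76, 202 and 35 in control libraries. A leading transcript listed at 0 in control replicate 2, whose Tlr7 counts all fell on the second one, shows how far such estimated splits vary between libraries.

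The counts of the 6 gene lists that follow stand beside shares of all tested genes called higher and lower of 15.2% and 18.5% in bleomycin against control, 4.28% and 1.87% in LNP against bleomycin and 4.95% and 3.08% in LNP against control, and without LNP replicate 3 of 20.5% and 22.1%, 14% and 10.7%, and 6.41% and 4.51% in the same comparisons.

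Among 10 other receptors and receptor partners, 4 (40.0%) were called higher and 3 (30.0%) lower in bleomycin against control. Tlr6, which pairs with Tlr2, rose by 1.08 ± 0.25 (adjusted p = 0.0091), and Clec7a, a fungal glucan receptor that cooperates with Tlr2, by 1.38 ± 0.29 (adjusted p = 0.0063). Ly86, which forms the accessory pair of Cd180, and Lbp, which delivers lipopolysaccharide to Cd14, were the others. Tlr12, an endosomal receptor for a parasite protein in mice, averaged 2.92 ± 0.628 CPM in LNP, 0.532 ± 0.199 CPM in bleomycin and 3.83 ± 1.27 CPM in control libraries. It fell by 2.84 ± 0.40 in bleomycin against control (adjusted p = 0.00091) and was higher by 2.45 ± 0.40 in LNP against bleomycin (adjusted p = 0.013). Like Tlr9, it had its lowest level in the bleomycin group. The fatty acid receptor Cd36 and the weakly counted Tlr11, at 0.0813 CPM in bleomycin, were the others lower against control. Tlr1, the other partner of Tlr2, averaged 7.87 ± 1.10 CPM in LNP, 3.54 ± 0.312 CPM in bleomycin and 3.86 ± 1.07 CPM in control libraries, and was higher in LNP against both (1.15 ± 0.24, adjusted p = 0.027, and 1.03 ± 0.24, adjusted p = 0.031). In LNP lungs 3 of the 10 were higher than in bleomycin (Tlr12, Ly86 and Tlr1) and 3 than in control (Ly86, Clec7a and Tlr1), with 0 lower in either. Without LNP replicate 3 the higher counts became 7 and 5.

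Of 13 genes that carry receptors to endosomes or trim nucleic acids there, 3 (23.1%) were higher and 1 (7.69%) lower in bleomycin against control, shares that with so few genes say nothing particular about the list beside 15.2% and 18.5% of all tested genes. The endosomal nucleases Pld3 (1.07 ± 0.14, adjusted p = 0.00068) and Dnase2a (0.80 ± 0.14, adjusted p = 0.0024) rose, as did Lrrc59 (1.28 ± 0.22, adjusted p = 0.0021), and the chaperone Cnpy3 fell by 0.52 ± 0.14 (adjusted p = 0.019). Unc93b1, which escorts endosomal receptors, averaged 149.2 ± 6.34 CPM in LNP, 103.3 ± 3.22 CPM in bleomycin and 97.1 ± 9.95 CPM in control libraries. It was higher in LNP than in bleomycin (0.53 ± 0.12, adjusted p = 0.030) and control lungs (0.62 ± 0.12, adjusted p = 0.011). The nuclease Pld4 was also higher in LNP lungs against both (0.76 ± 0.18, adjusted p = 0.038, and 1.15 ± 0.18, adjusted p = 0.0052), and Lrrc59 was lower in LNP than in bleomycin lungs. In all, 2 were higher and 1 lower in LNP against bleomycin, becoming 5 and 1 without LNP replicate 3, and 4 higher and 0 lower in LNP against control.

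Of 27 adaptors, kinases and transcription factors, 5 (18.5%) were higher and 3 (11.1%) lower in bleomycin against control, near the 15.2% and 18.5% of all tested genes, and without LNP replicate 3 in the fit 9 and 4. Irf7, the interferon regulator below Tlr7 and Tlr9, averaged 96.0 ± 44.3 CPM in LNP, 91.8 ± 2.46 CPM in bleomycin and 23.8 ± 1.58 CPM in control libraries. It rose by 1.95 ± 0.27 in bleomycin (adjusted p = 0.00077) and 2.01 ± 0.27 in LNP lungs (adjusted p = 0.0029), both against control. Ripk1, Traf3, Map3k7 and Traf6, which carry the signal towards NF-kB or interferon, were the other genes higher in bleomycin, and Irf3, Pik3ap1 and Ikbkg were lower. Between LNP and bleomycin lungs, Btk (0.84 ± 0.19, adjusted p = 0.030) and Pik3ap1 (0.68 ± 0.17, adjusted p = 0.043), a kinase and an adaptor that B cells use, were higher in LNP and Ripk1 was lower, becoming 5 higher and 6 lower without LNP replicate 3. In LNP against control, Irf7, Irf5 and Ticam2 were higher and 0 were lower, becoming 4 and 0 without LNP replicate 3.

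Of 21 brakes on the pathway, 9 (42.9%) were higher and 1 (4.76%) lower in bleomycin against control. Atf3, a repressor of cytokine genes, rose by 2.18 ± 0.22 (adjusted p = 0.00022), Tnip3 by 2.61 ± 0.35 (adjusted p = 0.0007), and Tnfaip3, which strips ubiquitin from signalling proteins, by 1.47 ± 0.23 (adjusted p = 0.0015), while Sigirr, an inhibitory member of the interleukin-1 receptor family, fell by 0.80 ± 0.16 (adjusted p = 0.0051). In LNP against bleomycin Sigirr was higher (0.63 ± 0.16, adjusted p = 0.049) and the phosphatase Dusp1 lower (-1.94 ± 0.41, adjusted p = 0.027), and without LNP replicate 3 the counts were 3 higher and 5 lower. Against control 4 were higher in LNP lungs (Nfkbie, Tnip3, Atf3 and Cd200r1) and 0 lower, becoming 5 and 1 without LNP replicate 3.

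Of 19 measured genes that these receptors induce, 11 (57.9%) were higher and 2 (10.5%) lower in bleomycin against control, with a median of 1.69. The monocyte chemokine Ccl2 averaged 8.41 ± 2.37 CPM in LNP, 22.8 ± 10.4 CPM in bleomycin and 0.591 ± 0.298 CPM in control libraries, and rose by 5.27 ± 0.51 in bleomycin (adjusted p = 0.0002) and 3.83 ± 0.48 in LNP lungs (adjusted p = 0.0023) against control. Cxcl10 had its highest mean in LNP, at 12.24 CPM, against 8.601 CPM in bleomycin and 1.536 CPM in control libraries. It rose by 2.48 in bleomycin (adjusted p = 0.00051) and 2.99 in LNP lungs (adjusted p = 0.00103), both against control. Between LNP and bleomycin lungs Cxcl10 was not called. Il6 and Icam1 were also called higher in bleomycin against control, and Ccl3 and Acod1 in LNP against control. Il1b averaged 9.02 ± 5.98 CPM in LNP, 41.3 ± 4.24 CPM in bleomycin and 9.20 ± 1.23 CPM in control libraries, so it was lower in LNP than in bleomycin lungs (-2.20 ± 0.41, adjusted p = 0.018). The T cell chemokine Ccl5 ran the other way, at 17.5 ± 3.78 CPM in LNP, 6.72 ± 0.0809 CPM in bleomycin and 23.3 ± 5.09 CPM in control libraries (1.38 ± 0.21 in LNP against bleomycin, adjusted p = 0.010). Il12b was also called lower in bleomycin and higher in LNP against bleomycin, from a level of at most 1.10 CPM in any group mean. Thus 2 were higher and 1 lower in LNP against bleomycin, becoming 3 and 5 without LNP replicate 3, and 5 were higher in LNP against control.

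Tissue proteins described as ligands of Tlr2 or Tlr4 also differed. Of 15 measured, 7 (46.7%) were higher and 1 (6.67%) lower in bleomycin against control, 0 higher and 5 lower in LNP against bleomycin, and 4 higher and 2 lower in LNP against control. The matrix protein Tnc averaged 250.4 ± 98.3 CPM in LNP, 817.1 ± 312.5 CPM in bleomycin and 24.0 ± 1.48 CPM in control libraries, and was lower in LNP than in bleomycin lungs by 1.71 ± 0.33 on the log2 scale (-1.71, adjusted p = 0.021). The serum amyloid Saa3 averaged 86.0 ± 45.2 CPM in LNP, 90.4 ± 10.02 CPM in bleomycin and 0.955 ± 0.0639 CPM in control libraries. S100a8, a neutrophil and monocyte alarmin, averaged 9.50 ± 2.19 CPM in LNP, 82.5 ± 25.9 CPM in bleomycin and 24.4 ± 3.40 CPM in control libraries, and was lower in LNP than in bleomycin (-3.12 ± 0.27, adjusted p = 0.00054) and control lungs (-1.36 ± 0.26, adjusted p = 0.012). It and its partner S100a9 are also among the neutrophil markers above. Vcan and Fn1 made up the rest of the 5 that were lower in LNP than in bleomycin lungs, and the surfactant protein Sftpa1 was the gene lower in bleomycin against control. Without LNP replicate 3, 2 of the 15 were higher and 7 lower in LNP against bleomycin, and 4 higher and 3 lower in LNP against control.

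The calls of these partner, signalling and target genes were uneven in how far they depended on single libraries. Of the 18 named calls in LNP against bleomycin, 16 were lost under at least 1 alternative, the exceptions being S100a8 and S100a9, and the adjusted p then reached at most 0.187. Leaving out bleomycin replicate 2 ended 16 of them, bleomycin replicate 1 ended 15, LNP replicate 1 ended 14, LNP replicate 2 ended 13 and bleomycin replicate 3 ended 11, while leaving out LNP replicate 3 ended 0. Control replicates 1, 2 and 3 entered through the shared spread, and leaving them out ended 8, 3 and 9. The minimum of 2-fold was not part of these per-gene checks. In bleomycin against control 9 of 34 named calls were lost under at least 1 other alternative, namely Lbp, Cd36, Tlr11, Cnpy3, Traf3, Map3k7, Pik3ap1, Ikbkg and Il12b. In LNP against control 9 of 24 were lost, among them Tlr1, Unc93b1, Irf5, Ticam2 and S100a8. A minimum of 2-fold would also end the bleomycin against control calls of Ly86 (0.61), Dnase2a (0.80), Ripk1 (0.65), Irf3 (-0.67) and Sigirr (-0.80). In LNP against control it would also end that of Dnase2a (0.92).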

How the data were processed

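Whole-lung poly(A) RNA of 9 libraries was sequenced from strand-marked libraries, as the labels' protocols describe. Tools named in the submitters' processing notes are fastp, StringTie and edgeR. The aligner, genome build and derivation of counts were not given in the sources used here. Per the file headers, the deposited table holds whole-number counts per gene and transcript. FPKM values per gene, computed by the authors and named in the file headers, gave levels between genes and an alternative test.

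Groups and replicate numbers came from the labels. Counts of all 9 libraries were fitted together with edgeR 4.0.16 (quasi-likelihood F test, TMM scaling, filterByExpr) in R 4.3.3, which tested 20794 genes and left out 11877. Adjusted p-values are Benjamini-Hochberg over all tested genes. Python 3.11.15, pandas 2.3.3 and matplotlib 3.10.9 made tables and plots. The edgeR fit was checked on simulated counts.

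The genes, lists, ratios and markers were chosen with earlier results of these data known. Named genes were all 10 members, up to 4 called genes per list, comparison and direction with the smallest p (Traf6 and Fn1, as the fifth of their lists, were named after their values were seen), and the 3 most similar genes per member. Of the list genes, Ifnb1 and Fgb were not matched. No library was a duplicate, the lowest chi-square of a pair divided by its degrees of freedom being 32.5. No pairing by the replicate numbers shared between groups was seen, since deviations of same-numbered libraries correlated at -0.018 to 0.04 over the tested genes. Such a correlation cannot exclude a shared batch or processing order.

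Alternatives were DESeq2 1.42.0, other scaling, no filter, a minimum of 2-fold, fits of the 2 groups compared, a block for the replicate number, limma 3.58.1 on log2(FPKM + 1) or log2(FPKM + 0.1) over 15478 genes averaging at least 0.5 FPKM, limma with no filter, and leaving out each library.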

Additional observations from a re-analysis of the deposited data

How the results depend on the processing

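Of the 10 genes, 8 were called in bleomycin against control, and 6 to 8 under the 19 alternatives, also when 1 library was left out. In LNP against control 3 were called, and 2 to 4 under the alternatives. In the main fit 15.2% of all tested genes were called higher and 18.5% lower in bleomycin against control. These shares were 4.95% and 3.08% in LNP against control, and 4.28% and 1.87% in LNP against bleomycin. In LNP against bleomycin, where 1 was called, the count was 2 with DESeq2 and 0 with no filter on low counts, with only the 2 groups compared and with limma on log2(FPKM + 1) without a filter, and 0 to 4 when 1 library was left out, the 4 being without LNP replicate 3. With the replicate number as a block it was 0, and Tlr9 then stood at 1.75 (adjusted p = 0.0846). The 1 call without bleomycin replicate 3 was Cd14 and not Tlr9. The causes were not tested. Directions turned for 2 genes that were not called: leaving out 1 library put Tlr5 in LNP against bleomycin at -0.016 (without bleomycin replicate 1) to 0.37, and Tlr3 in LNP against control at -0.26 (without control replicate 2) to 0.34. Counts of all called genes also moved: in LNP against bleomycin 1280 became 3011 with DESeq2, 432 with the replicate block, 102 without bleomycin replicate 2 and 5284 without LNP replicate 3. The minimum of 2-fold was applied to these counts only and not gene by gene, and any called gene that changed by less than 2-fold loses its call under it. Under all other alternatives, directions and calls were the same for 7 of the 10 genes in bleomycin against control, 4 of 10 in LNP against bleomycin and 7 of 10 in LNP against control. Among named list genes they were the same for 25 of 34, 2 of 18 and 15 of 24 in the same comparisons. Depth limits Tlr9 and Tlr8 most, with as few as 34 and 64 counts in a library.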
